A study of Mus musculus with 12 samples.

Results

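The levels of 9 genes of sympathetic neurons and of the neural crest were followed across mouse embryonic kidneys and reconstructed kidney organoids: Th, Dbh, Insm1, Stmn2, Nefm, Nefl, Elavl3, Sox10 and Chl1. These 9 genes were picked by name out of 27286 gene symbols on the array, and each was read from its brightest probe by mean level over the 12 arrays. They were picked with earlier results of the same arrays in view, so their levels and differences are given as descriptions without a test. The 12 arrays fell into 8 groups. Wild type ICR kidneys, dissected free of the ureter, were taken fresh at E11.5, at E13.5, at E15.5, at E17.5 and on the day of birth (P0), and a further E11.5 kidney sample was taken after 7 days of organ culture, with 1 array per group. Organoids were measured at day 0 and after 7 days of culture, with 3 arrays each. An organoid joined 3 populations: nephron progenitors and ureteric bud, both differentiated from mouse embryonic stem cells, and stromal progenitors, which came from E11.5 kidneys; the labels give its strain as ICR together with embryonic stem cells of B6 and 129SV background. The organoid stroma was therefore primary embryonic tissue, and the labels do not say whether the organoid replicates came from separate cultures, so p-values measure only the spread between these arrays. Each kidney group rested on a single array, and in every fit that set it against organoids it was assumed to vary like the organoid replicates.

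Sympathetic neurons arise from neural crest cells, which migrate ventrally, condense beside the dorsal aorta and, under homeodomain factors such as Phox2a, acquire the enzymes of noradrenaline synthesis. Tyrosine hydroxylase (Th) makes L-DOPA, the rate-limiting step, and dopamine beta-hydroxylase (Dbh) turns dopamine into noradrenaline. Their axons follow the renal artery into the kidney, and Sox10-positive crest cells become the Schwann cells that ensheath them. The other members mark neurons in general: Insm1 is a zinc finger factor of differentiating neuroendocrine and neuronal precursors, Elavl3 an RNA-binding protein of newborn neurons, Stmn2 a regulator of growth cone microtubules, Nefm and Nefl subunits of axonal neurofilaments, and Chl1 an adhesion molecule of the L1 family that is also found outside neurons.

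In RefSeq coordinates on GRCm38.p6 the genes lie on 7 chromosomes. Th is at chr7:142892779-142899995, Dbh at chr2:27165507-27183204 and Insm1 at chr2:146221997-146225020. Stmn2 is at chr3:8509527-8561604, Elavl3 at chr9:22015005-22052146, Sox10 at chr15:79154913-79164490 and Chl1 at chr6:103510584-103733038. Nefl at chr14:68083863-68089095 and Nefm at chr14:68119545-68125004 are neighbours, with 30449 bases between them. Th and Dbh act in the same pathway but varied over ranges of different width across the arrays, and for that reason their upstream sequences are shown, as the 250 bases before the annotated gene start from RefSeq on GRCm38.p6 (Th at chr7:142899996-142900245 on the minus strand, Dbh at chr2:27165257-27165506 on the plus strand). Capitals mark matches on either strand to the cyclic AMP response element TGACGTCA or its shorter core TGACG, which overlaps it, and to the homeodomain core ATTA. Neither window held the TATA motif TATAAA or the E-box CAGCTG.
Th: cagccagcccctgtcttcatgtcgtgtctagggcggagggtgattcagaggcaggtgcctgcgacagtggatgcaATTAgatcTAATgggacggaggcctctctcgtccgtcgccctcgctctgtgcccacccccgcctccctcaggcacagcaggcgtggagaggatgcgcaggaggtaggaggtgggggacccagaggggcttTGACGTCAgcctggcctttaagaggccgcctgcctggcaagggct
Dbh: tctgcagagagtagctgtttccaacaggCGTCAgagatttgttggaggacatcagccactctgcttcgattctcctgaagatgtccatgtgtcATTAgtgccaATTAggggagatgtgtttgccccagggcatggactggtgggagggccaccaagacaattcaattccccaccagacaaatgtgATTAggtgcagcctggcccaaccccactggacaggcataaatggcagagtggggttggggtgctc
The full TGACGTCA element was present in Th, beginning 45 bases before the gene start, and in 1.55% of 32841 promoters of the same length. TGACG alone was found in 17.8% of them, ATTA in 54.9%, TATAAA in 12.4% and CAGCTG in 13%. Dbh held TGACG once, on the minus strand 222 bases upstream, and ATTA at 157, 147 and 65 bases upstream, while Th held ATTA at 175 and, on the minus strand, 167 bases upstream. These letter matches describe the windows and say nothing about binding. The promoter table held 4 of the 9 members (Th, Dbh, Elavl3 and Chl1).

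The arrays held 62976 spots each, with 50.6% to 63.2% of probes well above background; day 0 organoid arrays were at the low end, 50.6% to 54.2%, against at least 56.1% on the others. No spot was saturated. Levels are log2 processed signals minus the 75th percentile of the same array, whose signal ranged from 126 to 286.8, so that a value of 0 lies at that percentile and 1 unit is a 2-fold difference. Organoid replicates correlated at 0.9927 to 0.9932 (day 0) and 0.9941 to 0.9962 (day 7). These correlations cover genes well above background on all arrays of an organoid group, with 1 probe per gene, and leave out dimmer genes. The arrays came from 2 slides: all kidney arrays shared slide 1 with day 0 replicates 1 and 2, whereas day 0 replicate 3 was on slide 2 with the day 7 arrays. Their number, with 1 kidney array per stage, limits the precision. A probe called dim below was not well above background, and where a group was dim on every array the fold is given as a lower bound. In such bulk samples fewer cells of a type and less RNA per cell cannot be told apart.

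**Figure D1:**
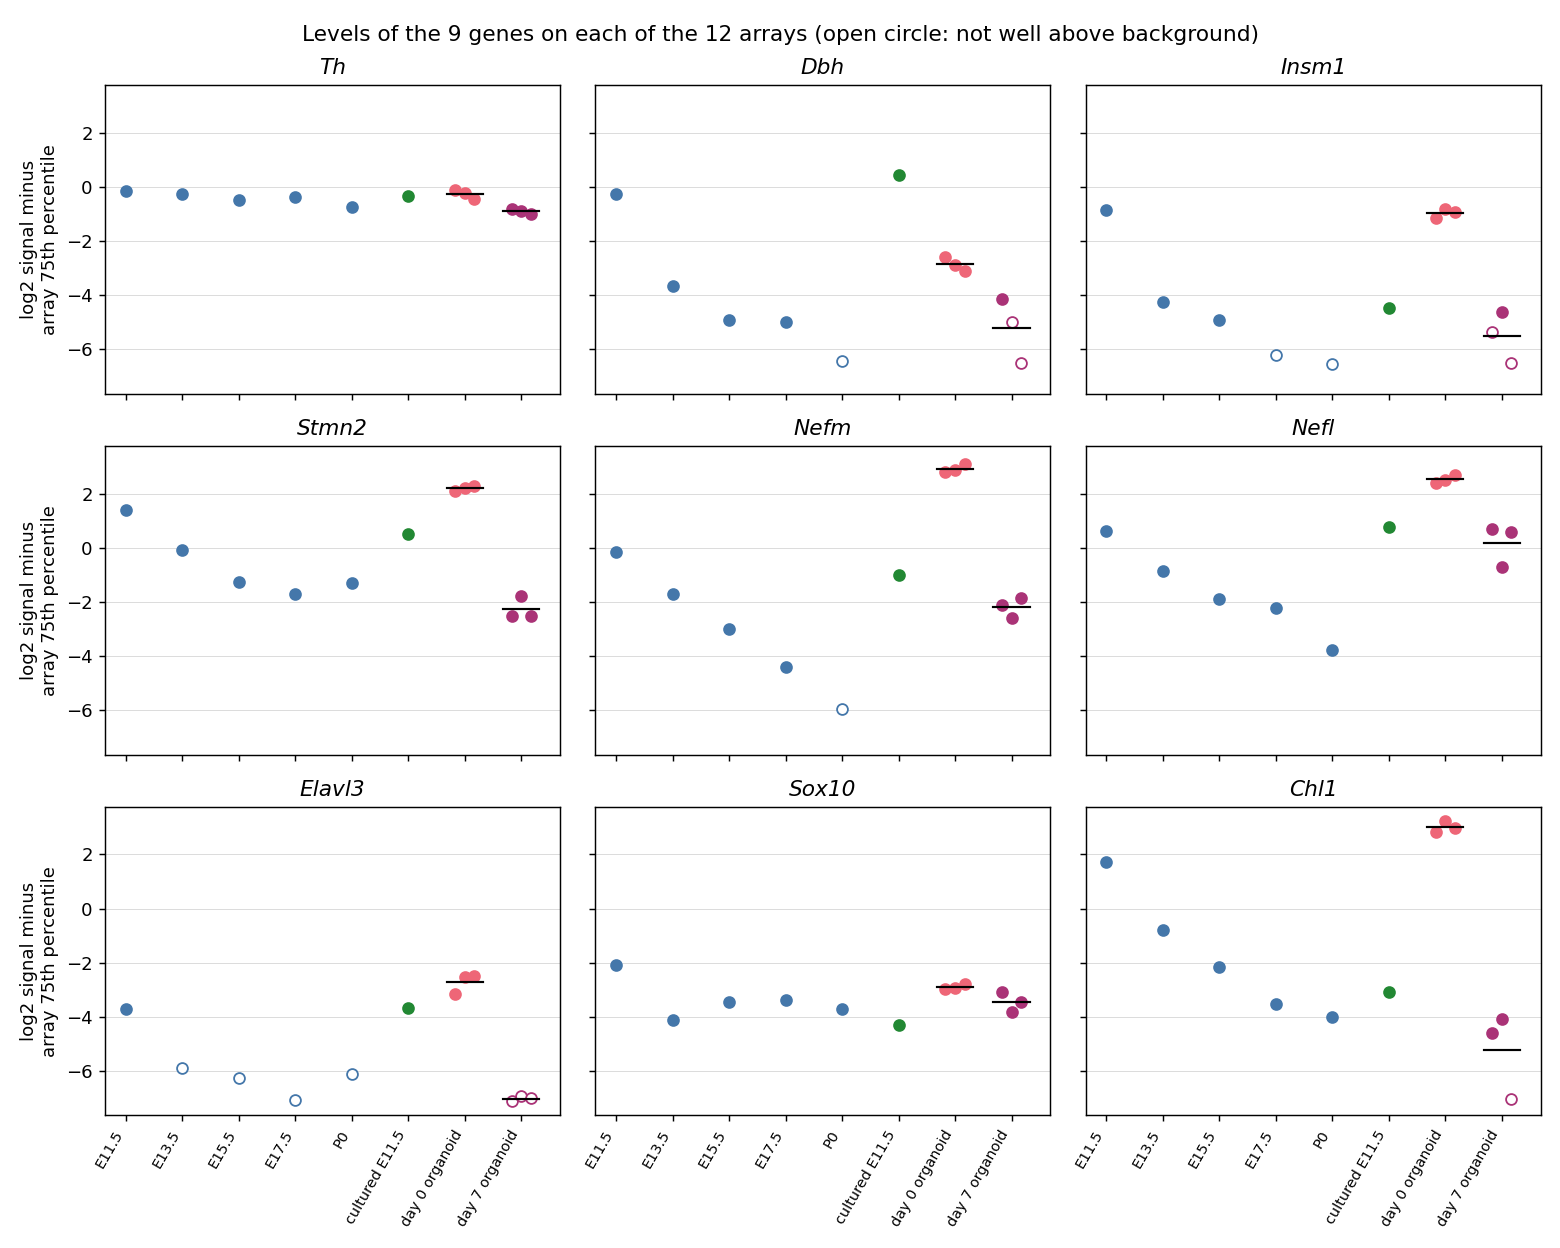
Level of each of the 9 genes on each of the 12 arrays, as log2 signal minus the array's 75th percentile, by group; points are arrays, open circles were not well above background and black lines are organoid means of 3 arrays. Th lay between -0.17 and -0.99 on 11 arrays and at -0.11 on day 0 replicate 1, whereas Nefm, Nefl, Stmn2, Elavl3 and Chl1 were higher on all 3 day 0 organoid arrays than on any kidney array.

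The noradrenaline enzymes differed in range, and their levels correlated at 0.693 over the 12 arrays. Th had the narrowest range of the 9 members. Its level was -0.17 at E11.5, -0.26 at E13.5, -0.49 at E15.5, -0.36 at E17.5, -0.75 at P0 and -0.35 in the cultured E11.5 kidney. It read -0.11, -0.23 and -0.45 in the day 0 organoids and -0.82, -0.88 and -0.99 in the day 7 organoids. The group means of Th thus spanned 0.73 log2 units, and 5 of the 7 gaps between neighbouring groups in its order were no larger than the pooled organoid SD of 0.14. The day 7 organoids were below all kidney arrays, and the P0 kidney was 1.5-fold below the E11.5 kidney. The files do not tell whether this nearly flat probe measures Th alone, which bears on every Th value.

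Dbh, by contrast, ranged over 6.86 log2 units. In fresh kidneys it read -0.27 at E11.5, -3.65 at E13.5, -4.90 at E15.5 and -4.99 at E17.5, and it was dim at P0. The P0 level was at least 32.2-fold below the E11.5 level. The cultured E11.5 kidney had the highest Dbh level of all arrays, 0.44, which was 1.64-fold above the fresh E11.5 kidney. Day 0 organoids read -2.58, -2.88 and -3.10, between the E11.5 and E13.5 kidneys and 6-fold below the E11.5 kidney (difference -2.58 ± 0.81, SE). At day 7 Dbh was well above background in replicate 1 only, at -4.15, and read -5.00 and -6.48 in dim spots on the other arrays. All 3 day 7 organoids were below the cultured kidney. The fitted difference of -5.64 ± 0.81 (SE) averages the dim spots, and it was -5.01 without replicate 3 and -2.39 with normexp background correction.

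Insm1 was highest in the fresh E11.5 kidney and the day 0 organoids. It read -0.86 in the fresh E11.5 kidney, and -1.15, -0.80 and -0.92 in the day 0 organoids, which lay on both sides of it. It read -4.26 at E13.5 and -4.91 at E15.5, and was dim at E17.5 and P0, at least 21.4-fold below E11.5 at P0. The cultured E11.5 kidney read -4.46. At day 7 a single organoid array, replicate 2, was well above background at -4.62, and replicates 1 and 3 read -5.36 and -6.48 in dim spots. E13.5 kidney, cultured kidney and E15.5 kidney were adjacent in its order with gaps no larger than the pooled organoid SD of 0.68.

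Stmn2, Nefm, Nefl, Elavl3 and Chl1 were highest at the start of organoid culture. Stmn2 read 1.38 at E11.5, -0.07 at E13.5, -1.25 at E15.5, -1.70 at E17.5 and -1.29 at P0, and 0.50 in the cultured kidney. Its day 0 organoid values were 2.10, 2.20 and 2.29, above all 6 kidney arrays, and its day 7 values of -2.53, -1.77 and -2.52 were below all 6. For Stmn2, as for Chl1, the organoids were thus above the whole kidney range at day 0 and below it at day 7.

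The neurofilament genes, although neighbours on chromosome 14, differed in where day 7 organoids stood relative to the E11.5 kidneys. A higher reading of Nefl than of Nefm was not particular to day 7, as the kidney values below show. Nefm read -0.15 at E11.5, -1.70 at E13.5, -2.99 at E15.5 and -4.41 at E17.5, was dim at P0 (at least 35.2-fold below E11.5), and read -1 in the cultured kidney. In organoids it read 2.81, 2.86 and 3.09 at day 0 and -2.12, -2.58 and -1.85 at day 7. None of the 7 gaps between neighbouring groups of Nefm was as small as its pooled organoid SD of 0.28. Nefm is the member measured with 10 spots per array, whose SD between spots ranged from 0.0178 to 0.687. Nefl read 0.62, -0.84, -1.90, -2.22 and -3.77 from E11.5 to P0, a 21.0-fold difference between the ends, and 0.75 in the cultured kidney. Its organoid values were 2.39, 2.51 and 2.68 at day 0 and 0.70, -0.71 and 0.59 at day 7. At day 7 Nefl was therefore at the level of the E11.5 kidneys in replicates 1 and 3, while Nefm was below both the fresh and the cultured E11.5 kidney on all 3 arrays.

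Elavl3 was dim on 7 of the 12 arrays. It was measured in the fresh and cultured E11.5 kidneys, at -3.71 and -3.67, and in the day 0 organoids, at -3.16, -2.51 and -2.47. It was dim at the 4 later kidney stages and on all 3 day 7 organoid arrays. The P0 kidney was at least 2.97-fold below the E11.5 kidney.

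Chl1 had the largest difference between organoid groups. It read 1.73, -0.77, -2.16, -3.50 and -3.99 from E11.5 to P0 (52.7-fold), and -3.06 in the cultured kidney. Organoids read 2.82, 3.24 and 2.98 at day 0, and -4.58, -4.06 and -7.02 at day 7, the last in a dim spot. The other Chl1 probe was also highest in day 0 organoids and next in the E11.5 and E13.5 kidneys, with the E15.5 and cultured kidneys in exchanged order: it read 0.27 at E11.5, -2.55 at E13.5, -4.10 at E15.5, -4.02 in the cultured kidney, 1.52, 1.78 and 1.69 in the day 0 organoids, and dim at E17.5, at P0 and on all day 7 arrays.

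Sox10, the crest and Schwann lineage factor, varied over 2.22 log2 units. It read -2.06 at E11.5, -4.11 at E13.5, -3.44 at E15.5, -3.38 at E17.5 and -3.71 at P0, so that the E11.5 kidney stood above the other stages, which showed no order with age. The cultured kidney read -4.28, its lowest level. Organoids read -2.97, -2.94 and -2.77 at day 0 and -3.06, -3.80 and -3.46 at day 7, all inside the kidney range.

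Across the fresh stages 8 of the 9 members were at least 2-fold lower at P0 than at E11.5, all except Th, where 15.3% of the 19921 genes measured were that much lower and 16.7% that much higher. At E13.5 the same 8 members were already at least 2-fold below E11.5, against 7.61% of genes lower and 5.91% higher. The median difference of the members from E11.5 was -2.05 at E13.5 and -4.39 at P0. As slopes per stage step, Nefm gave -1.43 ± 0.046 (SE), Chl1 -1.42 ± 0.17, Dbh -1.36 ± 0.26, Insm1 -1.33 ± 0.24 and Nefl -1.02 ± 0.096. The slopes of Stmn2 (-0.70 ± 0.18), Elavl3 (-0.60 ± 0.24), Sox10 (-0.26 ± 0.19) and Th (-0.13 ± 0.052) were shallower. Without the E11.5 array the slopes were -0.84 for Dbh, -0.81 for Insm1, -0.41 for Stmn2 and 0.12 for Sox10, and without P0 they were -0.08 for Th and -1.04 for both Stmn2 and Elavl3. With normexp background correction they were -0.57 for Nefm, -0.87 for Chl1, -0.49 for Dbh, -0.40 for Insm1, -0.61 for Nefl and -0.13 for Elavl3.

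Organ culture of the E11.5 kidney changed the members unequally. Compared with the fresh E11.5 kidney, 1 array each, Chl1 was 27.8-fold lower, Insm1 12.2-fold and Sox10 4.68-fold. These 3 of 9 members were at least 2-fold lower, a difference seen for 8.58% of all genes, and no member was at least 2-fold higher, as were 12.5% of genes. Stmn2 (-0.88) and Nefm (-0.85) were lower by less than 2-fold, and Th (-0.19), Elavl3 (0.04) and Nefl (0.12) differed by at most 0.19. Dbh was higher by 0.71. The cultured kidney therefore held Nefl and Dbh levels near or above those of the fresh organ, with Insm1 at the level of the E13.5 and E15.5 kidneys. With 1 array on either side these differences have no replicate check.

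In organoids all 9 members were lower at day 7 than at day 0, with no overlap between the arrays. The same held for 45.3% of all genes, while 29.6% were higher without overlap, and the members had been picked with this comparison known, so nothing is read from the count. The log2 difference was -8.24 ± 0.73 (SE) for Chl1 (301-fold), -5.11 ± 0.19 for Nefm (34.4-fold), -4.53 ± 0.44 for Insm1 and -4.47 ± 0.21 for Stmn2 (22.1-fold). Elavl3 was dim at day 7 and at least 4.99-fold lower. Dbh differed by -2.35 ± 0.55 and Nefl by -2.34 ± 0.37 (5.05-fold), while Th (-0.63 ± 0.11) and Sox10 (-0.55 ± 0.19) were lower by less than 2-fold. Chl1, measured on 2 of 3 day 7 arrays, and Dbh and Insm1, measured on 1 each, spread most there. With normexp background correction they differed by -4.53, -0.71 and -1.54, and Elavl3 by -0.90. Without day 7 replicate 3 the differences of Chl1, Dbh and Insm1 were -7.33, -1.72 and -4.03; that of Nefl was -1.88 without day 7 replicate 2, and that of Sox10 was between -0.74 and -0.37 as single arrays were left out. Within slide 2, which holds day 0 replicate 3 and all day 7 arrays, Chl1 differed by -8.20, Nefm by -5.28, Stmn2 by -4.56, Dbh by -2.10 and Th by -0.45.

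**Figure D2:**
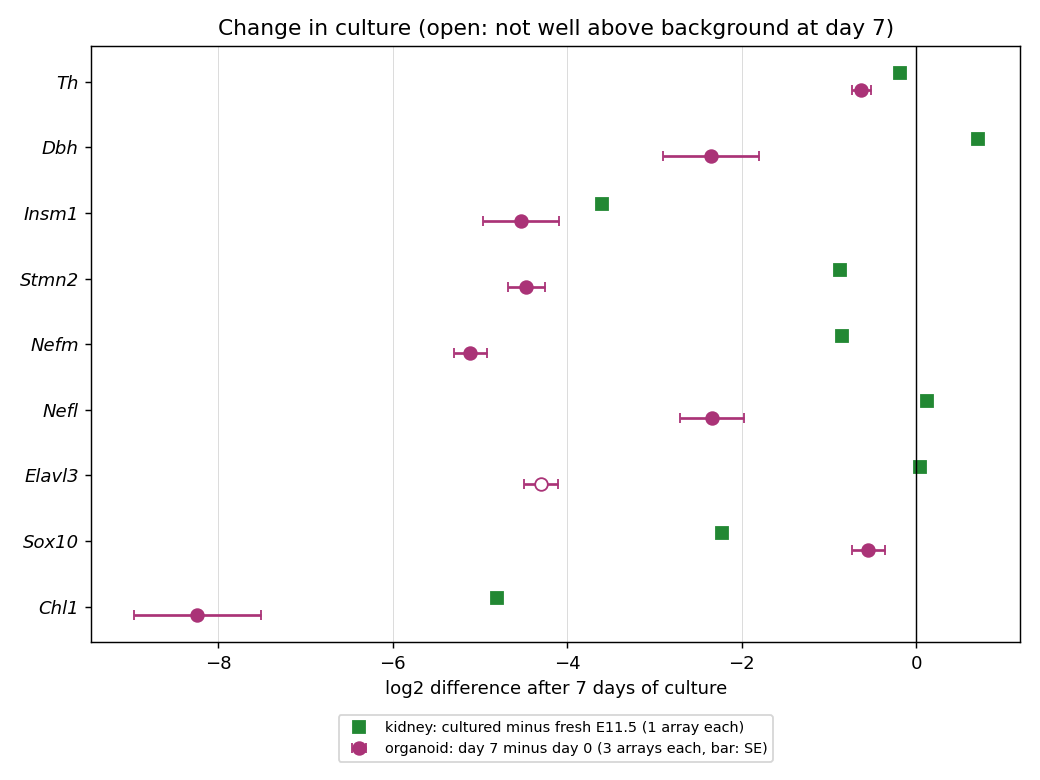
Change of each of the 9 genes over 7 days of culture on a log2 scale, in organoids (circles, 3 arrays at each time, bars are SE; open, not well above background at day 7) and in E11.5 kidneys (squares, 1 array each, no error). Chl1 and Insm1 were lower in both, Dbh differed by 0.71 in kidney and -2.35 in organoids, and Sox10 by -2.23 in kidney and -0.55 in organoids.

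Day 0 organoids were above all 6 kidney arrays for Stmn2, Nefm, Nefl, Elavl3 and Chl1. They were inside the kidney range for Dbh and Sox10, and across its upper end for Th and Insm1. How many of all genes lay above all 6 kidney arrays was not counted, so the number of members is not read as a result. Against the fresh E11.5 kidney, Nefm was 8.37-fold higher in day 0 organoids (3.07 ± 0.28, SE), Nefl 3.74-fold (1.90 ± 0.54), Chl1 2.43-fold (1.28 ± 1.1), Elavl3 2-fold (1 ± 0.28) and Stmn2 1.76-fold (0.81 ± 0.31). Insm1 and Th both differed by -0.10, which was less than their SE of 0.64 and 0.16. Sox10 was 1.78-fold lower (-0.83 ± 0.27), although with normexp background correction it differed by 0.05 and Dbh by -1.11. The neuronal cytoskeletal members and Dbh thus lay on opposite sides of the E11.5 kidney.

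At the end of culture the organoids were below all 6 kidney arrays for Th, Stmn2 and Chl1. They were inside the kidney range for Insm1, Nefm, Nefl and Sox10, and across its lower end for Dbh and Elavl3. The share of all genes in these positions was not counted. Against the E11.5 kidney cultured for the same 7 days, Dbh was lower on all 3 arrays, Stmn2 6.85-fold lower (-2.78 ± 0.31, SE) and Elavl3 at least 2.56-fold lower. Differences of Chl1 (-2.16 ± 1.1), Nefm (-1.19 ± 0.28), Insm1 (-1.02 ± 0.64), Nefl (-0.56 ± 0.54) and Th (-0.54 ± 0.16) had the same sign, and Sox10 was the member that was higher, by 0.84 ± 0.27. That of Th was -0.26 with slide as a block, that of Nefl was -0.11 without day 7 replicate 2, and those of Chl1 and Insm1 were -1.26 and -0.52 without day 7 replicate 3. With normexp Chl1, Insm1 and Elavl3 differed by -0.27, -0.14 and -0.35, Stmn2 by -1.72 and Nefm by -0.68. The organoid change minus the kidney change over the same 7 days was below 0 for every member except Sox10 (1.68 ± 0.38). It was -4.25 ± 0.4 for Nefm, -3.59 ± 0.43 for Stmn2, -3.06 ± 1.1 for Dbh and -2.46 ± 0.76 for Nefl. The median of all genes was -0.04, and the share of all genes below 0 was not counted. With normexp background correction Sox10 stood at 0.23 against the cultured kidney and at 0.18 in the difference of changes. These comparisons share arrays, and each is given as its own values.

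The label of the 9 genes was checked against further noradrenergic, neuronal, crest and central nervous system genes, listed with earlier results of these arrays known, and each list gene was tested with limma over all genes, adjusted by Benjamini-Hochberg and called at an adjusted p under 0.05. Defining sympathetic genes were not all present. The noradrenaline transporter gene Slc6a2 and the factor gene Hand1 were dim on all 12 arrays, as were the crest genes Foxd3 and Cdh19. Phox2a, a homeodomain factor of noradrenergic differentiation, read 0.10 in the fresh E11.5 kidney, -1.17 in the cultured one, and 2.09, 2.04 and 2.25 in the day 0 organoids, 4.07-fold above the fresh kidney. The label therefore holds only in part, since Slc6a2 and Hand1 were not measured above background in any group, and the genes are called below by their names.

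**Figure D3:**
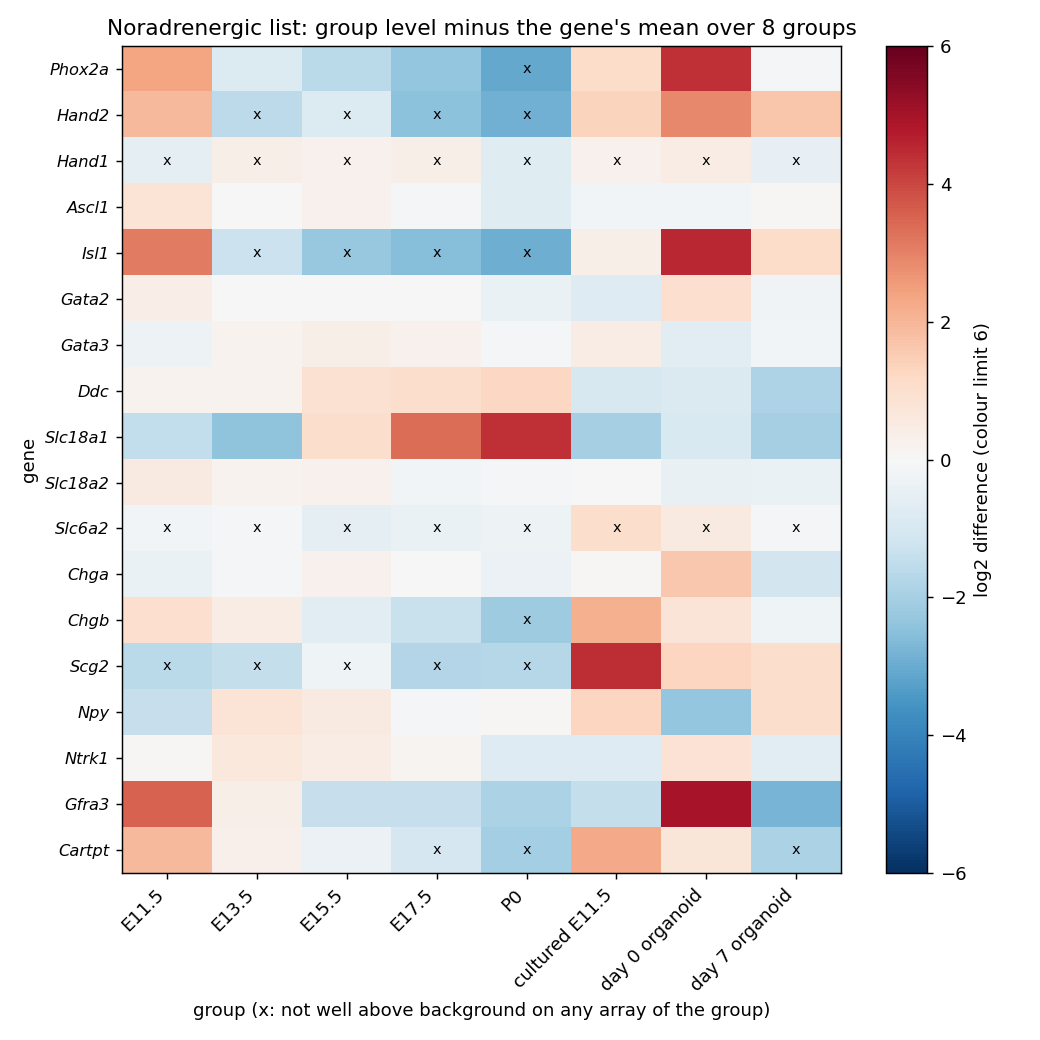
Mean level of the noradrenergic list genes shown in each of the 8 groups minus each gene's mean over the groups, on a log2 colour scale; a cross marks groups with no array well above background. Phox2a, Isl1 and Gfra3 are highest in day 0 organoids, Scg2 in the cultured E11.5 kidney and Slc18a1 in the P0 kidney, while Slc6a2 and Hand1 are crossed in every group.

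Over organoid culture, 9 of the 14 noradrenergic list genes tested were lower at day 7 and 2 were higher, and 16 and 4 of the 24 neuronal cytoskeleton and synapse genes; over all 17987 genes tested, 41.1% were lower and 27.5% higher. The noradrenergic median was -1.16, that of the cytoskeleton and synapse list -0.65 and that of all genes -0.17. Gfra3, the receptor subunit for artemin, which guides sympathetic axons, read 4.62, 4.66 and 4.81 at day 0 and -3.08, -2.82 and -3.20 at day 7, and fell by 7.73 ± 0.12 (SE, limma adjusted p = 1.32e-06). Phox2a fell by 4.50 ± 0.16 (adjusted p = 4.67e-06) and the LIM factor gene Isl1 by 3.42 ± 0.42 (adjusted p = 0.000481). Npy, the neuropeptide co-released by sympathetic nerves, moved the other way, from -3.77, -3.23 and -3.03 to -0.22, 0.35 and 0.05 (3.40 ± 0.23, limma adjusted p = 3.71e-05). These 4 genes differed in the same directions between the cultured and the fresh E11.5 kidney, with 1 array each. The differences there were -4.96 for Gfra3, -1.27 for Phox2a, -2.74 for Isl1 and 2.66 for Npy. Of the neuronal list, the log2 differences were -3.78 for Elavl2, -3.22 for Crmp1, -2.61 for Stmn3 and -2.59 for Gng3 (limma adjusted p of 3.7e-06, 0.000169, 0.000197 and 2.14e-05).

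Crest and Schwann genes changed in both directions, and some entered the fit through a single organoid group because they were dim in the other. Of the 9 crest and Schwann genes tested 3 were lower at day 7 and 4 higher, with a median of 0.35. For this list and those below, 41.1% of all genes tested were lower and 27.5% higher. Pax3 and the neurotrophin receptor gene Ngfr fell, Ngfr by 1.61 ± 0.13 (limma adjusted p = 7.67e-05), and Pax3, measured at day 0 alone, was at least 2.71-fold lower at day 7. The glial gene S100b was measured at day 7 alone and at least 1.59-fold higher there, a direction that reversed with normexp background correction. Fabp7, of radial glia and Schwann precursors, rose by 1.76 ± 0.4 (limma adjusted p = 0.00722), a call lost with slide as a block. Among the central nervous system progenitor genes 6 of 8 were lower and 1 higher; Otx2 and En2 differed by -1.11 and -1.07 (limma adjusted p of 0.000502 and 0.000156), and Neurog1 and Pax7, measured at day 0 alone, were at least 2.60-fold and 2.81-fold lower. Over the 52 neural list genes well above background on every organoid array, 31 were lower and 8 higher. The share of all genes under this stricter filter is not given, so nothing is read from this count. In the L1 and contactin list, the family of Chl1, 1 of 5 genes was lower, Cntn1 with -0.53 (limma adjusted p = 0.0245), and 0 were higher, also at an unadjusted p under 0.05; the Cntn1 call was lost without day 0 replicate 2 or 3 or day 7 replicate 2 or 3.

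Genes of neurotrophic and guidance ligands were mostly higher after organoid culture. Of the 8 tested, 6 were higher at day 7 and 1 lower, with a median of 1.48. Over all genes tested 27.5% were higher and 41.1% lower. Sema3a, a repellent for sympathetic axons, rose by 2.80 ± 0.085, Bdnf by 2.39 ± 0.088 and Artn, the ligand of Gfra3, by 2.17 ± 0.2 (limma adjusted p of 2.89e-06, 4.83e-06 and 0.000136). Artn read -1.59, -1.94 and -1.22 at day 0 and 0.60, 0.77 and 0.39 at day 7. Netrin 1 (Ntn1) fell by 2.10 ± 0.13 (limma adjusted p = 2.75e-05). The gene of the ligand Artn and that of its receptor subunit Gfra3 thus changed in opposite directions in the same organoids. This was not particular to organoids. The cultured E11.5 kidney differed from the fresh one by 2.39 for Artn and -4.96 for Gfra3, with 1 array each. Sema3a read -1.66 in the fresh and 0.94 in the cultured kidney.

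Against the fresh E11.5 kidney, day 0 organoids had 10 of the 66 neural list genes tested higher and 10 lower, where 15.6% of all 19568 genes were higher and 13.9% lower. Without day 0 replicate 3, with slide as a block and on slide 1 alone the lower count was 6. With normexp background correction 33 list genes were higher, the share of lower among all calls was 30.1% against 47.0%, and the median of all genes was 0.17 against 0.04. Among the noradrenergic genes 6 of 17 were higher and 4 lower. Phox2a (2.03 ± 0.24, SE, adjusted p = 0.00322) and the granule protein gene Chga (2.01 ± 0.42, adjusted p = 0.018) were higher in limma's test. Of the neuronal genes Tubb3 was 2.79-fold higher and the internexin gene Ina 2.05-fold (limma adjusted p of 0.0135 and 0.00451), while the growth cone gene Gap43 was 3.94-fold lower (limma adjusted p = 0.026), a call lost when any day 0 replicate was left out. Among crest and Schwann genes 4 of 10 were lower and 0 higher (1 at an unadjusted p under 0.05); the log2 difference was -2.91 ± 0.53 for Sox8 and -0.67 ± 0.13 for Pou3f1 (limma adjusted p of 0.0118 and 0.0132). Of the 10 central nervous system progenitor genes and the 5 L1 and contactin genes, limma called 0 in this comparison; at an unadjusted p under 0.05 there were 2 lower and 1 higher in the first list and 1 higher in the second.

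After 7 days of culture on both sides, 17 of 66 neural list genes were lower in organoids than in the cultured E11.5 kidney and 1 was higher, where 2.69% of all genes were lower and 3.46% higher. The lower count was 11 without day 7 replicate 1 or 3. Slide as a block left 3 lower and 0 higher, and the higher count was 0 when any organoid array other than day 0 replicate 2 was left out. By median scaling 23.7% of all calls were lower against 43.7%, and the median of all genes was 0.20 against 0.01. Of the noradrenergic genes 5 of 17 were lower and 0 higher (1 at an unadjusted p under 0.05), and of the neuronal cytoskeleton and synapse genes 9 and 1 of 24. Prph, peripherin of peripheral axons, read -0.66 in the cultured kidney and -4.54, -4.56 and -4.56 in the day 7 organoids (-3.90 ± 0.21, SE, limma adjusted p = 0.00087). It was dim in the fresh E11.5 kidney, at least 18.5-fold below the cultured one. Scg2, a secretory granule gene, was dim at every fresh stage and read -1.18 in the cultured kidney, at least 17.6-fold higher. Day 7 organoids, well above background on 2 of 3 arrays, differed from the cultured kidney by -3.38 ± 0.27 for Scg2. Scg2 entered the fit through the cultured kidney array alone, where it was highest, so its call is not read as support. The Prph call held in all 14 alternatives run. The filter to genes above background on every array of the fit could test neither gene. Cartpt, the peptide gene whose level followed that of Dbh, was dim at day 7 and at least 5.89-fold lower, a call lost without day 7 replicate 1 or 3 and under the slide block. Cartpt entered the fit through the lone fresh and cultured E11.5 kidney arrays, where it was highest, so its call is not read as support either. Of the ligands 2 of 9 were higher, Nrg1 and Bdnf, the latter by 2.06 ± 0.12 (limma adjusted p = 0.00111).

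The organoid change minus the kidney change over 7 days was tested directly for the lists. It was below 0 for 14 of 66 neural list genes and above 0 for 2, where 6.47% and 7.89% of all genes were called. By median scaling 33.8% of all calls were lower and with normexp 66.2%, against 45.1%. The higher count was 0 without day 0 replicate 1 or day 7 replicate 3 and 1 without day 7 replicate 1. Of the noradrenergic genes 4 of 17 were lower, with Scg2 at -6.29 ± 0.38, Phox2a at -3.23 ± 0.34, Chga at -3.19 ± 0.59 and Gfra3 at -2.77 ± 0.25 (limma adjusted p of 0.0017, 0.00541, 0.0225 and 0.00352); the Chga call was lost without day 7 replicate 3 and under the slide block. Of the cytoskeleton and synapse genes 8 of 24 were lower and 0 higher (1 at an unadjusted p under 0.05), with Stmn3 at -4.44 ± 0.54 and Tubb3 at -2.72 ± 0.4 (limma adjusted p of 0.00782 and 0.0123). Stmn3 read -2.26 in the fresh and -0.43 in the cultured kidney. In organoids it read -1.51, -1.80 and -1.43 at day 0 and -3.98, -3.81 and -4.78 at day 7. It was thus higher after culture of the kidney and lower after culture of the organoid. Scg2 entered this fit through the cultured kidney array alone, so its call is not read as support.

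**Figure D4:**
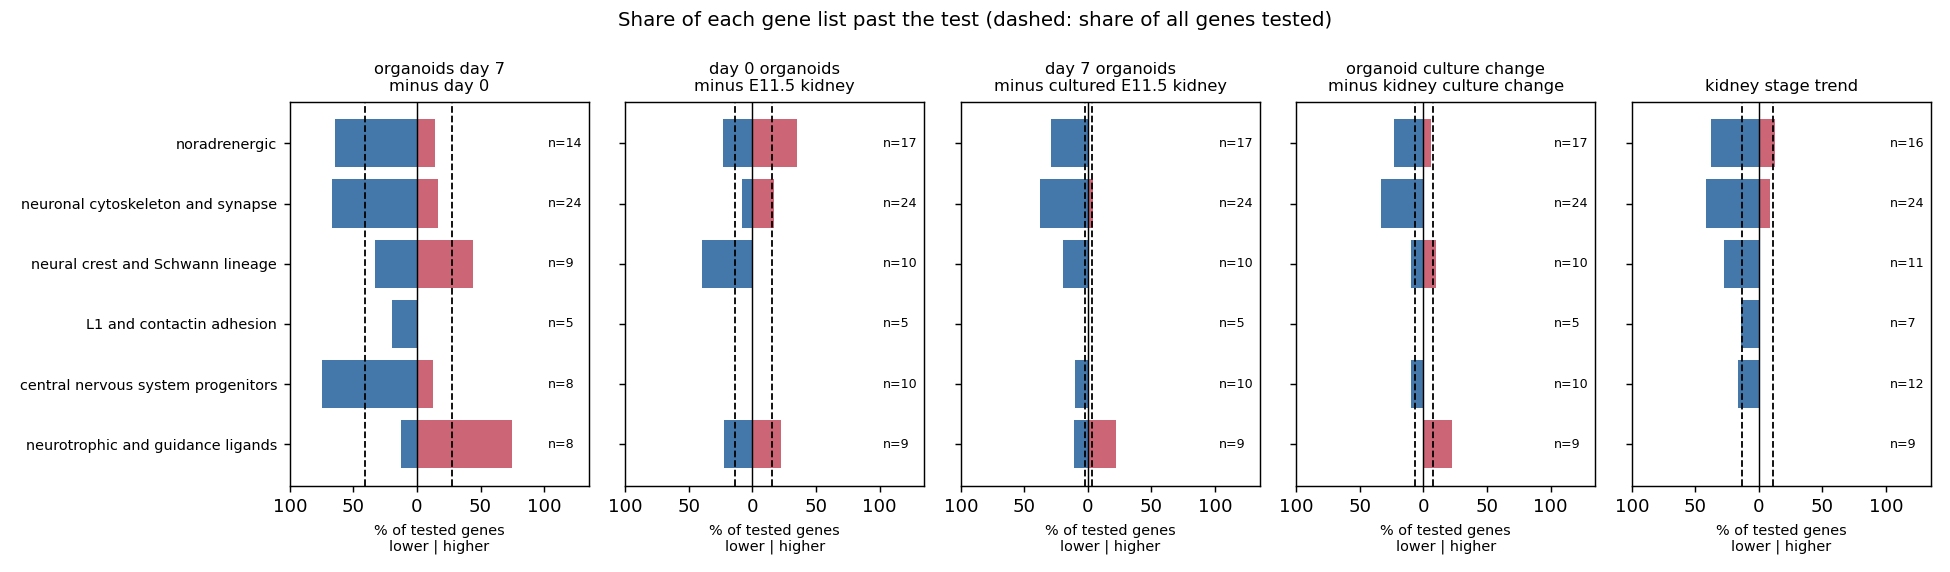
Percentage of the tested genes of each list called lower (left, blue) or higher (right, red) in 5 comparisons by limma at an adjusted p under 0.05; n is the number of list genes tested and dashed lines give the percentage over all genes tested. In organoids at day 7 against day 0 the neuronal list had 16 of 24 genes lower, whereas 6 of the 8 ligand genes were higher.

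Along the 5 fresh kidney stages 22 of 70 neural list genes fell and 4 rose, where 13.2% of all 20773 genes fell and 11.4% rose. The lower count was 14 without the E15.5 array, 9 without E17.5 and 5 without P0, and the higher count was 2 without E13.5 or E15.5 and 0 without E17.5 or P0. By median scaling 35.1% of all calls were lower against 53.6%. The cytoskeleton and synapse list had 10 of 24 genes falling and 2 rising. The slope per stage step was -1.04 ± 0.057 for Crmp1, -0.80 ± 0.045 for Gap43, -1.12 ± 0.12 for Tubb3 and -1.24 ± 0.13 for Elavl2 (limma adjusted p of 0.00689, 0.00689, 0.00978 and 0.00997), and these 4 calls held in every alternative run. Of the noradrenergic genes 6 of 16 fell and 2 rose. Phox2a fell by 1.24 ± 0.23 per step (limma adjusted p = 0.0247), reading 0.10 at E11.5 and -3.08 at E13.5, a call lost without E15.5, E17.5 or P0. Slc18a1, the vesicular transporter gene of chromaffin cells, rose from -3.06 and -4.01 at the first 2 stages to -0.56, 1.75 and 2.81 (limma adjusted p = 0.0211), a call lost without E17.5 or P0.

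Markers of other cells were read beside these results. All 7 kidney identity genes were well above background in every group, and their summed log2 level was 5.49 to 7.16 in fresh kidneys, 6.67 in the cultured kidney, 6.64 to 6.90 at day 0 and 6.42 to 6.58 at day 7. That of the adrenal gland list was 1.43 to 3.19 in fresh kidneys (6 to 8 of 10 genes well above background), 1.48 in the cultured kidney (5 genes), 0.65 to 0.80 in day 0 organoids (4 to 6 genes) and 0.83 to 1.01 in day 7 organoids (6 to 7 genes). That of the skeletal muscle list, with 4 to 7 of 11 genes well above background, was -0.39 to 1.12 in fresh kidneys and 1.60 in the cultured kidney. It was 1.85 to 2.14 in day 0 and 2.49 to 3.03 in day 7 organoids. The higher day 7 sum reflects Acta1, which read -0.37 at day 0 and 2.60 at day 7 (group means). Of the 7 muscle genes tested between these days, limma called 5 lower and 1 higher, with a median of -2.13. Over all genes tested 41.1% were lower and 27.5% higher. Over the 8 muscle genes tested against the E11.5 kidney, the median difference of day 0 organoids was 2.59, against 0.04 for all genes. Of these, Myog and Myl1 were dim in the fresh and the cultured E11.5 kidney. Motor and cholinergic neuron genes summed to -2.70 to -1.04 in fresh kidneys, -0.57 in the cultured kidney, -1.51 to -1.43 at day 0 and -2.59 to -1.90 at day 7, and sensory neuron genes to -0.42 to -0.15, -0.33, -0.05 to 0.01 and -0.03 to 0.38. Melanocyte genes, of another crest derivative, summed to 0.60 to 2.69, 1.45, 0.83 to 1.01 and 1.41 to 1.43. Single genes carried much of some sums. Akr1b7 of the adrenal list alone read 2.94 in the E15.5 kidney, while Mrap of that list was dim in every group. Mitf of the melanocyte list alone read 2.54 in the P0 kidney, while Tyrp1 was dim in every group. Such sums are therefore not levels of a cell type. The part of these cells in the members' levels was not tested.

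Among 19188 genes well above background on at least 4 arrays, the gene most like each member over the 12 arrays was sought by Pearson r, as a description in which all points share arrays and scaling. Stmn2 and Elavl3 were each other's closest gene (r = 0.973). Nefm was followed most closely by Reep1 (0.99), Nefl by Sipa1l2 (0.988) and then by the neuronal tubulin gene Tubb3 (0.982), and Chl1 by the neuronal migration gene Astn1 (0.987) and by Gfra3 (0.974). Insm1 was followed by Bcl11a (0.978), Dbh by Prf1 (0.897) and Cartpt (0.882), and Th by Klk9 (0.957) and Rxrg (0.957). The closest match of Sox10, the transcript BB338611, reached 0.903.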

How the data were processed

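Agilent 1-colour arrays gave the data. Per the labels, total RNA was amplified from low input and labelled with Cy3. The scanner files that the authors deposited hold intensity values (processed signals) and background flags per spot; per the file headers they came from Agilent Feature Extraction 11.5.1.1, whereas the submitters' processing notes name 10.7.3.1. The authors' deposited value table was on a log2 scale and equalled the log2 processed signal minus a constant of each array. Intensities were divided by each array's 75th percentile and log2 transformed, control and outlier spots were left out, spots of a probe were averaged and the probe of highest mean stood for its gene. RefSeq named 28026 of the 55681 probes through an accession, a further 3418 through the symbol and 295 through a synonym; 5037 kept the name in the file and 18905 had none.

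Genes above background in all arrays of some group were fitted with limma 3.58.1 in R 4.3.3: the 6 organoid arrays, 8 arrays in 4 groups, and a slope over 5 fresh stages. All 9 members passed this filter. In the organoid fit Dbh, Insm1, Elavl3 and Chl1 passed through the day 0 arrays alone. Fits were tested on simulated data. Another gene of the noradrenergic list is included in its counts but not reported here. Members and gene lists were chosen with earlier results of these data known. From each neural or ligand list, up to 4 called genes with the largest difference could be named, plus dim genes on which a list turns, and for each member the 3 genes of highest r were searched. A bound sets the dim group at the higher of its own signal and the lowest signal well above background on each array. Alternatives changed background correction (normexp, offset 50), scaling, probe choice, filter, variance model, slide, replicate block, the authors' table and single arrays. Figures were drawn with Python 3.11.15 (matplotlib 3.10.9, numpy 2.4.6).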

Additional observations from a re-analysis of the deposited data

Results flagged for a closer look

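The change over 7 days of culture differed between organoids and the E11.5 kidney, by limma's test of the difference itself, for 13 named list genes; each value is the organoid change minus the kidney change on the log2 scale, and the kidney change rests on 1 array at each time. Among the noradrenergic genes the difference was -6.29 for Scg2, -3.23 for Phox2a, -3.19 for Chga and -2.77 for Gfra3. Scg2 was dim in the fresh kidney, so its value depends on a background signal, and it entered the fit through the cultured kidney array alone. Of the neuronal genes it was -4.44 for Stmn3, -2.72 for Tubb3, -2.64 for Prph and -2.23 for Elavl2. Prph was dim in the fresh kidney and in the day 0 organoids. In the progenitor and crest lists it was -2.69 for both Neurog1 and Pax3, which were dim at day 7, and 3.48 for Sox8, a call lost without day 0 replicate 1 or any day 7 replicate. For the ligands Bdnf (1.87) and Ntf3 (0.71) the organoid change was the higher one; the Ntf3 call was lost without 5 of the 6 organoid arrays in turn.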

How the results depend on the processing

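The 35 lower and 11 higher neural list genes of the organoid comparison stayed within 1.5 times under every alternative run, with 32 to 34 lower and 8 to 10 higher when single arrays were left out, 29 and 10 under a slide block, and 35 and 10 under the replicate block. That block is no pairing by design: deviations of same-numbered arrays correlated at -0.013, -0.15 and -0.013. For day 0 organoids against the E11.5 kidney (10 and 10) the higher count was 33 with normexp and 17 without the filter, and the lower count 6 with slide as a block and 6 on slide 1; leaving out arrays gave 6 to 11 lower and 10 to 13 higher. For day 7 organoids against the cultured kidney (17 lower, 1 higher) slide as a block gave 3 and 0, no filter 0 higher, and leaving out arrays 11 to 15 and 0 to 1. For the difference of changes (14 and 2) normexp gave 32 lower, the mean of probes 4 higher, trend and robust variances 4 higher, no filter 1 higher, and leaving out arrays 10 to 14 and 0 to 3. For the stage slope (22 and 4) median scaling and no filter each gave 2 higher, and leaving out arrays 5 to 19 and 0 to 3. The Sox10 difference between day 0 organoids and the E11.5 kidney turned from -0.83 to 0.05 with normexp, and its stage slope, -0.26, ranged from -0.4 to 0.12 as single stages were left out, positive without E11.5. Every member kept its sign at day 7 against day 0 in all alternatives run. The offset added with normexp shrinks dim signals, and it gave -4.53 for Chl1 and -0.90 for Elavl3. The cause of the other shifts was not tested. Dim probes give bounds only.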
